A study of Homo sapiens with 4 samples.

Results

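The genes described here are 10 human genes best known from myeloid blood cells, measured in a colon cancer cell line after treatment with DNA-demethylating drugs: TYROBP, FCER1G, TREM1, TREM2, TLR1, TLR2, CD14, CD83, CD86 and MPO. They were chosen by name, as genes of the TREM1 pathway and other blood-cell genes, and 10 of the 25002 named genes of the array are members. The choice was made with earlier results of these data known, and the study lists TREM1 signaling among the pathways enriched on these arrays. Their transcripts matched 12 probes, of which TREM1 had 3 and each other member 1. Most members encode surface receptors, but TYROBP and FCER1G are adaptors that carry the signal of such receptors, and MPO is a granule enzyme.

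HML58-3 cells, derived from the colorectal carcinoma line HCT116 and carrying a luciferase reporter under a methylated promoter, received mock treatment on day 1 or a drug at 1 µM, which was OR-2100, OR-2003 or DAC (decitabine), and RNA was taken on day 5. DAC is a cytidine analog that traps DNA methyltransferases, so that methylation is lost as cells divide, and OR-2003 and OR-2100 are prodrugs of DAC. All 4 groups share the same engineered line, and the labels do not say what the mock medium held. Each group was 1 single-colour Agilent array, so every value below is 1 measurement, and differences carry no p-value.

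In myeloid cells, receptors such as TREM1 and TREM2 have almost no signalling tail of their own and pair with TYROBP, whose immunoreceptor tyrosine-based activation motif (ITAM) is phosphorylated by SRC-family kinases and then recruits the kinase SYK. FCER1G does the same for Fc receptors. Toll-like receptors form a parallel input: TLR1 and TLR2 together recognise bacterial lipopeptides, CD14 hands microbial lipids to them, and both routes lead to NF-kappaB and inflammatory cytokines. CD83 and CD86 are surface proteins of mature antigen-presenting cells, and MPO makes hypochlorous acid in neutrophil granules. They are known mainly from blood cells rather than from epithelium.

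Promoter sequences were available from RefSeq (GRCh38.p14) for 8 of the 10 members, with 10 start sites in all, each taken as 300 bases from 250 before the start to 50 after. The promoters of TYROBP, TLR2, CD83 and FCER1G are shown, because among members that rose they cover both CG-poor and CG-rich starts, and because FCER1G, the sister adaptor of TYROBP, did not rise. CG dinucleotides, the sites that DNA methyltransferases modify, are in capitals, and each sequence reads 5′ to 3′ on the strand of the gene. TYROBP lies at chr19:35908246-35908545 (minus strand), TLR2 at chr4:153684030-153684329 (plus strand), the downstream start of CD83 at chr6:14117522-14117821 (plus strand) and FCER1G at chr1:161215045-161215344 (plus strand).
TYROBP: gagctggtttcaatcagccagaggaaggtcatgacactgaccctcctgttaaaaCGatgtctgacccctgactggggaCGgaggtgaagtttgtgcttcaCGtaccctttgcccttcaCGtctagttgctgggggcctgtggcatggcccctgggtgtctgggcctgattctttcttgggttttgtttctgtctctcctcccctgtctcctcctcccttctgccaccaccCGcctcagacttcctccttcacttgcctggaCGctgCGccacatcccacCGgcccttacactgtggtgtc
TLR2: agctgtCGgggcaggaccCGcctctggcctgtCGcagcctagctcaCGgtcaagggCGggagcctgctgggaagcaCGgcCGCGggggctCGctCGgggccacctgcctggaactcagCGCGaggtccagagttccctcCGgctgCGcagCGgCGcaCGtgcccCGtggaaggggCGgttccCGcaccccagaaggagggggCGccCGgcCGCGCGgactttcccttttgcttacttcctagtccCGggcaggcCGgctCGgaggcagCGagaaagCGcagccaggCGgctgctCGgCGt
CD83: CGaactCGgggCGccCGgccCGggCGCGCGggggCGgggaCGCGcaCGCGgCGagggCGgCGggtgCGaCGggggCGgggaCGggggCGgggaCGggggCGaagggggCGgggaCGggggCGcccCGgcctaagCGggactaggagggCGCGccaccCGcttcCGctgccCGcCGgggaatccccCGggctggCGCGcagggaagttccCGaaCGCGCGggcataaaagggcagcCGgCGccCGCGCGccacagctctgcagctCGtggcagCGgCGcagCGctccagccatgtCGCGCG
FCER1G: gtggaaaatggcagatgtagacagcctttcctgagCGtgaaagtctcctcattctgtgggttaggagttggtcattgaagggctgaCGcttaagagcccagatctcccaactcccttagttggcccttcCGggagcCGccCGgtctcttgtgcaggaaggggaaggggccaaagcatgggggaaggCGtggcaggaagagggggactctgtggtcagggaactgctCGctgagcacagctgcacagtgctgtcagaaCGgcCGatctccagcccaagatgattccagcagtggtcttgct

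Levels are given on the log2 scale with the 75th percentile of all gene probes of an array set to 0. Following the methods of the study, a level of -1 or more counted as positive expression, and a gene counted as induced if it reached that level after the drug and was 2-fold or more over mock. A reduced gene had that level in mock and was 2-fold or more under it after the drug. Where values are listed, mock comes first, then DAC, OR-2003 and OR-2100. By all 3 drugs 6 members were induced, namely TYROBP, TLR2, CD14, CD83, CD86 and MPO, and none was reduced by any drug. In all, DAC induced 6 of 10 members, OR-2003 induced 7 and OR-2100 induced 6, whereas the shares over all named genes were 5.78% for DAC, 5.9% for OR-2003, 5.81% for OR-2100 and 5.28% for all 3. Because the members were chosen with earlier results of these data known, these counts describe them and are no independent contrast. Reduced genes made up 5.96%, 6.05% and 6.82% of all named genes with the respective drugs, and 5.21% with all 3. The median log2 difference of the members was 1.62, 1.59 and 1.63, against -0.11, -0.093 and -0.23 over all named genes. The number induced by all 3 was 5 with normexp, another background correction, and 4 when arrays were scaled on probes well above background or when the level threshold was 0. The shares over all named genes were then 4.44%, 3.75% and 3.86%. Normexp as run adds 50 to every corrected intensity, which by itself shrinks the differences of dim probes, here and below. Scaling on probes well above background puts 0 higher but keeps -1 as the positive level, so that threshold is stricter. The median difference over all named genes then rose to 0.11, 0.20 and 0.026. Induced calls lost with that scaling, here and below, were therefore lost through the level and not the difference. The members with a level of -1 or more numbered 3 in mock, 7 with DAC, 8 with OR-2003 and 7 with OR-2100. Of all 25002 named genes, 12103, 12528, 12566 and 12560 had such a level on the same arrays.

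**Figure D1:**
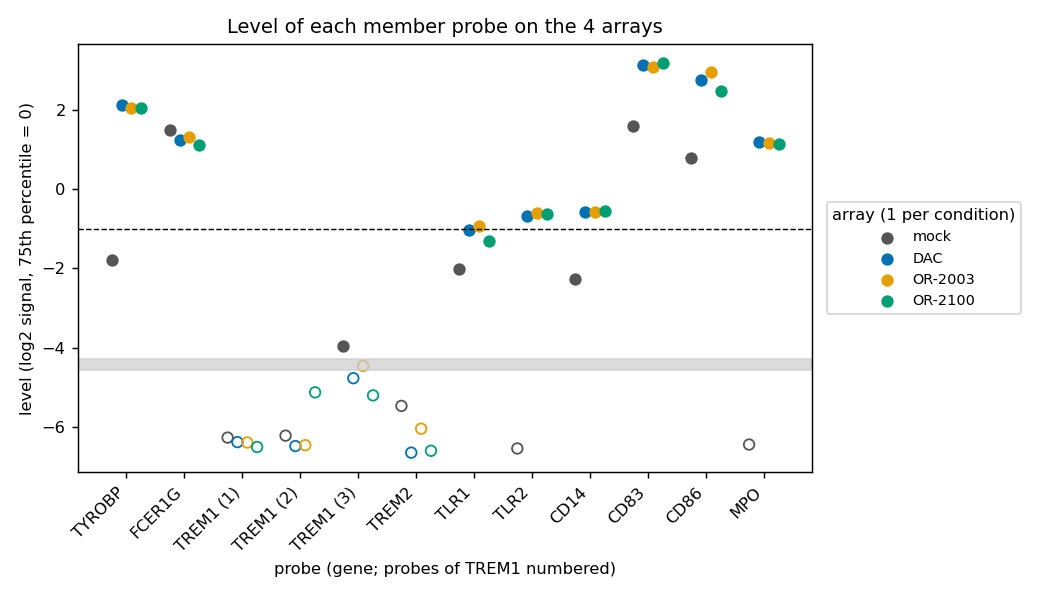
Level of each of the 12 member probes (log2 signal with the 75th percentile of the array at 0) on the 4 arrays, 1 per condition. Filled points are well above background and open points are not, the dashed line is the level of -1 taken as positive expression, and the grey band is the range over the arrays of the dimmest signal that was well above background. The drug points of TYROBP, CD14, CD83, CD86, TLR2 and MPO lie together above the mock point, those of FCER1G lie just below it, and TREM1 and TREM2 stay near or under the band.

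TYROBP, the adaptor for TREM1, TREM2 and many other activating receptors, had the largest difference among members measured on all 4 arrays. Its signal was 44.0 in mock, 762 with DAC, 685 with OR-2003 and 728 with OR-2100. The level thus moved from -1.79 to between 2.04 and 2.11, or 15.0-fold with DAC and 14.3-fold with each of OR-2003 and OR-2100 after scaling. By mean log2 difference it stood at rank 131 of 15975 genes measured on all arrays.

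FCER1G, the related adaptor of Fc receptors, was already positive in mock and stayed so. Its signal was 430 in mock, 415 with DAC, 415 with OR-2003 and 382 with OR-2100. The log2 differences were -0.26, -0.18 and -0.38, near the -0.11, -0.093 and -0.23 of the median gene, and the sign turned positive for OR-2003 (0.12) when arrays were scaled on probes well above background. The 2 adaptors, which share the ITAM route, therefore differed on these arrays: 1 went from below the positive level to well over it, and the other held a positive level throughout.

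The receptors TREM1 and TREM2, which signal through TYROBP, were not well above background on any drug array. TREM1 amplifies inflammatory responses in neutrophils and monocytes. The brightest of its 3 probes gave 9.89 in mock, 6.48 with DAC, 7.57 with OR-2003 and 4.79 with OR-2100. It was well above background in mock only. No fold is given, because another gene, CD2, had 10.9 with DAC and was not well above background there. The other TREM1 probes were below background on all 4 arrays. TREM2, a lipid receptor of macrophages and microglia, gave signals of 3.45, 1.77, 2.53 and 1.82, all below background, so no fold is given. With the drugs, therefore, the adaptor was measured and its TREM partners were not.

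TLR2, the lipopeptide receptor, went from a signal not well above background to a positive level. Its signal was 1.64 in mock and 110, 109 and 115 with the drugs. Against the dimmest signal well above background in mock, 7.81, each drug array was at least 12-fold higher, and the drug values lay close to each other. Some brighter probes were not well above background (CD2 at 9.19 in mock), so bounds of this kind, here and below, are approximate. With normexp the log2 differences were 1.47 to 1.53. The constant it adds shrinks a rise from a dim signal whatever the background, so these values do not test the bound. The levels with the drugs lay between -0.69 and -0.60, and the call of TLR2 was lost with scaling on probes well above background and with a level threshold of 0. TLR1, its partner, was measured everywhere and moved less, with signals of 37.8, 85.9, 86.7 and 71.2. The folds were 1.97 with DAC, 2.10 with OR-2003 and 1.63 with OR-2100, so that TLR1 lay on either side of the 2-fold threshold and was called only with OR-2003, a call lost under normexp background correction and under each other scaling.

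CD14, the co-receptor of TLR2 and TLR4, had signals of 31.6 in mock, 118 with DAC, 112 with OR-2003 and 119 with OR-2100. Its level moved from -2.27 to between -0.58 and -0.56, and the log2 differences were 1.70, 1.70 and 1.71. With normexp background correction they were 0.84 to 0.86, under the threshold of 2-fold. The call was also lost, through the level and not the difference, with scaling on probes well above background and with a level threshold of 0.

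CD83 and CD86, the markers of mature antigen-presenting cells, were positive in mock and rose further. The signal of CD83 was 460 in mock and 1556, 1396 and 1581 with the drugs, which was 2.92-, 2.78- and 2.98-fold after scaling. That of CD86, the ligand of CD28 and CTLA4, was 263 in mock and 1190, 1288 and 980, which was 3.91-, 4.48- and 3.23-fold. In both genes every drug array was above mock, and the drug values of CD86 were spread more widely than those of CD83. Across the 4 arrays the genes with levels most like those of CD83, among 17536 compared, were LINC02899, SHD and SP110, each at a root mean square distance of 0.13 log2.

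MPO, the myeloperoxidase of neutrophil granules, gave the largest lower bound of the members. Its signal was 1.76 in mock, not well above background, and 401, 375 and 384 with the drugs. The drug arrays were at least 44.4-, 44.0- and 42.6-fold higher, at levels of 1.19, 1.17 and 1.13. With normexp the log2 differences were 2.88, 2.78 and 2.82, smaller than this bound, and MPO was still called induced.

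**Figure D2:**
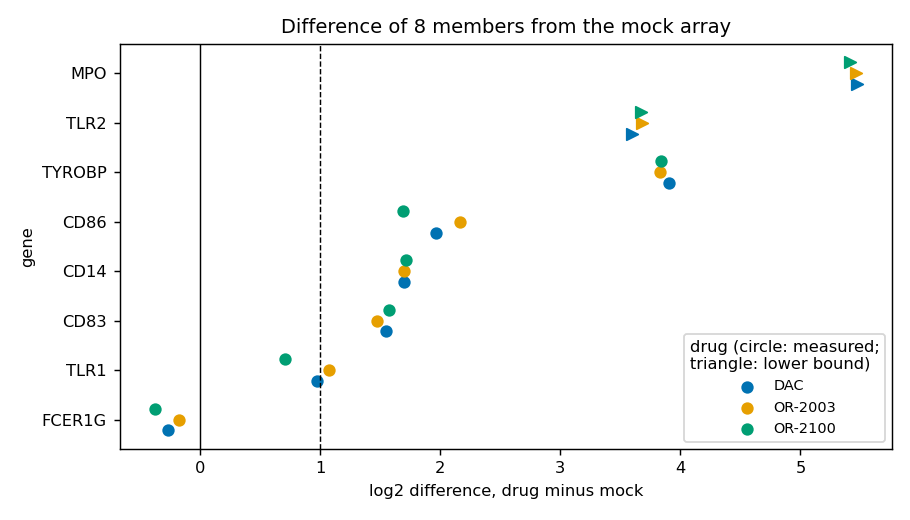
Log2 difference from mock (horizontal axis) of the 8 members well above background on all 3 drug arrays, with 1 point per drug. Circles are differences measured on both arrays and triangles are approximate lower bounds for genes not well above background in mock. The dashed line marks 2-fold. TYROBP, TLR2 and MPO lie beyond 3.5, CD14, CD83 and CD86 between 1.48 and 2.16, TLR1 around the line, and FCER1G below 0.

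Member probes had 1 spot each. Probes printed on 10 spots gave the spread within an array, with a median SD of 0.22 to 0.30 log2 at levels from -4 to -2, of 0.095 to 0.11 at levels from -2 to 0 and of 0.059 to 0.064 at levels from 2 to 4. The differences of TYROBP, CD14, CD83 and CD86 exceeded these SDs. The mock levels of TLR2 and MPO, -6.54 and -6.44, lay under the range for which an SD was taken. Spots of 1 array do not carry the spread between cultures, which was not measured. The scanner software marked the slope of the spike-in controls of the mock array, 0.899, as outside its range, while those of the drug arrays were 0.913 to 0.955, and its part in these differences was not tested.

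The 3 drugs were compared in 3 pairs at the same dose and time. No member was 2-fold apart in any pair, against 0.008% of named genes between OR-2003 and DAC, 0.008% between OR-2100 and DAC and 0.004% between OR-2100 and OR-2003. Over the 8 members measured on both arrays, the log2 difference ran from -0.07 to 0.20 for OR-2003 minus DAC, from -0.28 to 0.07 for OR-2100 minus DAC and from -0.47 to 0.10 for OR-2100 minus OR-2003. CD86 was farthest from 0 in every pair, lowest with OR-2100 and highest with OR-2003. The central 95% of all genes spanned -0.34 to 0.43, -0.45 to 0.44 and -0.51 to 0.41, so that each CD86 value lay inside it. With 1 array per drug the interval of these differences cannot be given, and they do not show that the compounds act alike.

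The other receptors that pair with TYROBP or FCER1G did not move as the members did. Of 34 matched genes, members left out, 1 was induced and 1 reduced by all 3 drugs, or 2.94% each, and 15 were below background on every array. NCR3, which encodes the natural killer receptor NKp30, rose from a signal of 8.85 to 388, 346 and 372. KLRC3, of the NKG2 family, fell from 181 to 39.4, 45.9 and 40.3, though its close paralogs may share signal with its probe. The call of KLRC3 was lost with scaling on probes well above background, and that of NCR3 when the probes of a gene were averaged. OSCAR was called induced when its probes were averaged or any of them could count, but not by its brightest probe, with signals of 1398, 1306, 1292 and 1323. The median of the mean log2 difference over the drugs was -0.16 for the list and -0.15 for all named genes.

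Among 32 genes of ITAM adaptors and their signalling, 5 were induced and 3 reduced by all 3 drugs, with a median of 0.14. LCK, the SRC-family kinase of T cells, was not well above background in mock and was at least 32.7-, 33.1- and 34.2-fold over it with the drugs. LAT, the scaffold of T cell receptor signalling, differed by 2.34, 2.34 and 2.36 log2, and INPP5D, the inositol phosphatase SHIP1, by 1.77, 1.71 and 1.66. MALT1, the paracaspase on the way to NF-kappaB, was reduced, with differences of -1.61, -1.73 and -1.53, as was VAV1, a guanine nucleotide exchange factor, with -1.43, -1.59 and -1.52. SYK, the kinase next after TYROBP, was measured in mock at 107 and had differences of 0.53, 0.54 and 0.53, under the threshold. With normexp or with scaling on probes well above background the counts were 3 induced and 1 reduced: MALT1 lost its call in both, LCK lost it with that scaling, and VAV1 kept it.

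No other Toll-like receptor or adaptor of 23 matched was induced or reduced by all 3 drugs, with a median of 0.04, although 2 were induced when arrays were scaled on probes well above background. The adaptors MYD88 and TICAM2 were not among the matched genes, so nothing is said of them. IRAK3 had a signal of 1.66 in mock, not well above background, and 21.4, 24.4 and 22.7 with the drugs, under the positive level. TLR3, the double-stranded RNA receptor, had signals of 60.8, 71.0, 74.7 and 79.6. TLR4, the lipopolysaccharide receptor, was well above background in mock only, at 10.1. TLR5, the flagellin receptor, was reduced by DAC alone (log2 difference -1.02, against -0.65 and -0.60 with OR-2003 and OR-2100), and the difference between drugs was not tested.

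Costimulatory genes other than CD83 and CD86 gave 1 induced of 19, ICAM1, the ligand of leukocyte integrins, with differences of 2.31, 2.22 and 2.42. Their median was -0.15. CD80, the partner of CD86 in binding CD28, was below background on all 4 arrays, and CD40 had differences of -0.13, -0.15 and -0.09. CTLA4 had a signal of 1.75 in mock, not well above background, and 87.9, 81.5 and 86.6 with the drugs. The drug arrays were at least 9.73-, 9.57- and 9.62-fold higher, at levels just under the positive one. CD274 rose from 14.7 to 42.8, 47.4 and 49.2, also under the positive level. With no level threshold 3 genes of the list were induced by all 3 drugs, ICAM1, CTLA4 and CD274, and 6 were reduced. The shares of all named genes were then 11.8% induced and 7.93% reduced. The count of 1 became 2 with normexp, which added CTLA4. It also became 2 with quantile normalization or scaling on probes well above background, which added TNFSF9.

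Granule proteins other than MPO gave 3 induced of 21, or 14.3%, and 11 below background on every array. CAMP, the precursor of the antimicrobial peptide LL-37, differed by 4.67, 4.69 and 4.68 log2, MMP9, gelatinase B, by 2.81, 2.81 and 2.80, and LCN2, the siderophore binder lipocalin, by 1.69, 1.39 and 1.71. ELANE, neutrophil elastase, had signals of 2.85, not well above background, and 32.2, 38.9 and 39.8 with the drugs, which stayed under the positive level. The call of LCN2 was lost with normexp and with scaling on probes well above background. MMP9 and LCN2 are also made by epithelial cells.

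Genes known as outputs of TREM1 and TLR signalling had 7 of 21 induced by all 3 drugs, or 33.3%, none reduced, and a median of 1.52. TNF, not well above background in mock, was at least 43.0-, 42.6- and 49.4-fold over it, CXCL1, a neutrophil chemokine, differed by 4.18, 4.10 and 4.49 log2, and CXCL8, interleukin 8, by 3.96, 3.91 and 4.10. The 5 genes IL1B, IL6, IL10, CCL2 and CCL7 were below background on all 4 arrays. The median was 0.23 with normexp and 0.75 with a floor at the background limit, and CXCL8 lost its call with scaling on probes well above background.

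Of 16 transcription factors of the myeloid lineage, 2 were induced by all 3 drugs and the median was 0.38. TFEC was at least 22-fold higher with each drug than in mock, a call lost with scaling on probes well above background and when probes were averaged. The median was 0.073 with normexp and 0.096 with the floor. SPI1, which encodes PU.1, the factor that drives much of the myeloid program, had signals of 25.6, 24.0, 15.4 and 20.1, low on every array.

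Markers of other cell types were read beside the members. Of 23 leukocyte and myeloid markers, 4 were induced by all 3 drugs, 17.4%, none was reduced, the median was 0.17, and 6 were below background on every array, among them CD53, MNDA, MRC1, CLEC12A and MS4A6A. HCLS1, a SRC kinase substrate of blood cells, differed by 5.85, 5.88 and 5.89, CSF1R, the receptor of macrophage colony-stimulating factor, by 3.71, 3.95 and 3.81, CORO1A, an actin-binding protein, by 1.92, 1.87 and 1.92, and CD33, a sialic acid receptor, by 1.69, 1.70 and 1.72. CORO1A lost its call with scaling on probes well above background. PTPRC, the pan-leukocyte marker CD45, had signals of 54.7, 50.9, 49.4 and 56.4, and ITGAM, the integrin CD11b, 20.5, 20.9, 19.4 and 21.2, with no rise in either. CD4 was positive throughout, at 4323 in mock and 3747, 3431 and 3469 with the drugs. Summed over the list on the linear scale, in units of the 75th percentile, the level was 32.8 in mock and 52.6 to 53.5 with the drugs. CD4 made up most of the sum in mock, and CD4 and HCLS1 most of it with the drugs, so the sum does not describe the whole list. LAPTM5, CD163 and AIF1 rose but stayed under the positive level. Their mock signals were 1.66, 2.34 and 14.7, the first 2 not well above background. With the drugs they were 47.2 to 60.1, 24.6 to 35.3 and 38.9 to 46.3. With no level threshold 8 markers of the list were induced by all 3 drugs and 0 reduced, beside 11.8% and 7.93% of all named genes. Thus PTPRC did not follow the members, while part of the list did.

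Lymphoid markers gave 4 induced of 15, none reduced, with a median of 0.82 and a summed level of 14.3 in mock and 24.8 to 26.1 with the drugs. CD3D, of the T cell receptor complex, differed by 4.63, 4.78 and 4.70, and CD79B was at least 11.4-fold higher, a call lost with scaling on probes well above background. With normexp the median of the list was 0.065. CD79A, which made up most of the summed level in mock, had a signal of 1912 there and of 1865 to 1936 with the drugs. MS4A1, GNLY and KLRB1 were below background on all arrays. Erythroid and platelet markers gave 0 induced and 1 reduced of 10, HBG1 (-1.69, -1.82 and -1.83), whose probe may also catch its near copy. Their median was -0.18, and their summed level was 14.5 in mock and 5.59 to 5.94 with the drugs. HBG1 alone made up most of that sum on every array.

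The epithelial keratins KRT8, KRT18 and KRT19 were high and well above background on all arrays. KRT20 was not well above background in mock, at 5.60, and had 71.4, 74.3 and 63.1 with the drugs, under the positive level. VIL1, TSPAN8 and MUC13 were also not well above background in mock, and had higher but dim signals with the drugs. The summed level of epithelial markers was 1628 in mock and 1678 to 1772 with the drugs. KRT18 and KRT19 made up most of that sum on every array, so it says little of the other markers. CDH17, GPA33, CEACAM5 and CEACAM6 were below background on all 4 arrays. Of 20 such markers, 1 was induced, LGALS4, a galectin (2.25, 2.57 and 2.62), 6 were reduced, 30.0%, and the median was 0.04. The call of LGALS4 was lost with normexp and with scaling on probes well above background. Under that scaling and under quantile normalization 4 markers were reduced. With no level threshold 5 markers were induced and 7 reduced by all 3 drugs, beside 11.8% and 7.93% of all named genes. The lowest were CLDN4, a tight junction claudin, with differences of -2.13, -2.06 and -2.06, and ELF3, an epithelial transcription factor, with -1.88, -2.04 and -2.06. EPCAM was also reduced, from a signal of 17116 to 7053, 6493 and 7202, as was CDH1, from 2241 to 1216, 1079 and 1091. The call of CDH1 was lost with normexp, with quantile normalization and with scaling on probes well above background. Whether the change in these lists has a part in that of the members was not tested.

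The member promoters held few CG dinucleotides, apart from 2. Over all 35116 promoters of the same length the median was 14. TYROBP and CD14 had 8 each, FCER1G 9, TREM2 5, TREM1 2, the starts of CD86 3 and 4, and the upstream start of CD83 6, whereas TLR2 had 33 and the downstream start of CD83 had 53. The last 2 exceeded 82.8% and 99.4% of promoters. Members induced by all 3 drugs thus stood on both sides of the median, and TYROBP and FCER1G, whose sequences are printed above, had nearly the same number. Taking the most CG-rich start of each gene, the median was 21 for 926 genes induced by all 3 drugs and 22 for the 17786 others.

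The motif GAGGAAG, the core of a PU.1 site, occurred on either strand in the promoters of TYROBP, CD14 and TREM1 and in the upstream start of CD86, and in 13.6% of all promoters. GGGCGG, an SP1 box, occurred in TLR2, FCER1G and the downstream start of CD83, and in 45% of all. TATAAA occurred in the upstream start of CD83 alone, and in 11.5% of all. These are matches of letters and no measure of binding. Both strands were read, and none of the 3 motifs contains another.

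The genes next to the members on the chromosome were read beside all named genes. Taking the 2 nearest genes with a probe on each side, 2 of 24 neighbours of the 6 induced members were induced by all 3 drugs (8.33%) and 1 was reduced (4.17%), and of 16 neighbours of the other members 1 was induced (6.25%) and none reduced, beside 5.28% and 5.21% of all named genes. Nothing is read from counts this small. HCST, the DAP10 adaptor beside TYROBP, which also serves natural killer receptors, differed by 0.53, 0.54 and 0.68. TSPOAP1, beside MPO, differed by 4.21, 4.16 and 4.32, and RNF182, beside CD83, by 1.44, 1.26 and 1.18. CSTA, near CD86, was reduced, with differences of -2.36, -2.32 and -2.62. ADAMTS4, an aggrecan-degrading protease near FCER1G, went from a level of -6.37, not well above background, to -0.56, -0.28 and -0.27, while FCER1G itself did not rise. RNF175, beside TLR2, was not well above background in mock and had levels of -2.68, -1.99 and -2.07 with the drugs, well above background but under the positive level. TREML2, beside TREM2, was likewise measured with the drugs alone, at levels of -3.72, -4.23 and -3.61. TLR6, beside TLR1, had differences of -0.75, -0.93 and -1.55 at levels under -1, and was below background with OR-2100.

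**Figure D3:**
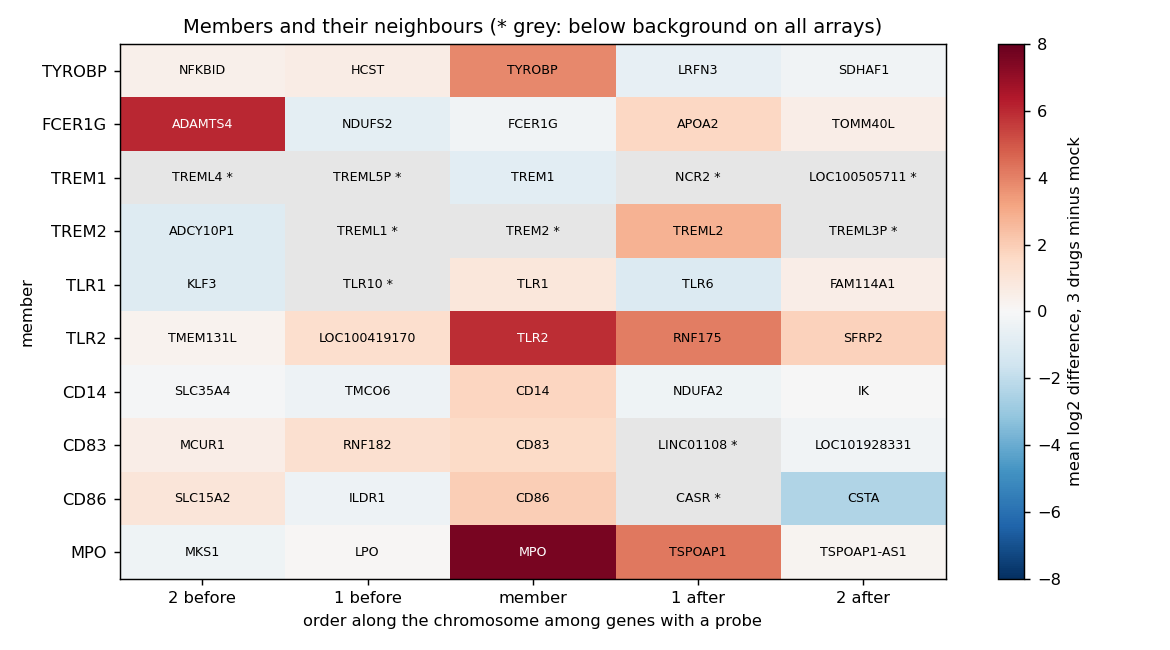
Mean log2 difference over the 3 drugs, as colour, of each member (middle column) and of the 2 nearest genes with a probe on each side in chromosome order. Starred grey cells were below background on all arrays, and colours of genes not well above background in mock rest on values under the background limit. Red cells stand beside MPO (TSPOAP1), TLR2 (RNF175), FCER1G (ADAMTS4) and TREM2 (TREML2), and those beside CD14 lie near 0.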

How the data were processed

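RNA of 4 cultures of HML58-3 cells, 1 per condition, was hybridised to Agilent 8x60K arrays. The authors deposited the scanner output of Feature Extraction 12.1.0.3, in which the intensity of each spot is background-corrected but not normalized between arrays, and a series table of the same intensity values. Control spots and spots marked as outliers (52 to 98 per array, none of a member) were left out. Spots of a probe were averaged as log2 intensity, and each array was shifted so that its 58200 gene probes had their 75th percentile at 0. Of these, 34888 were named through a RefSeq gene table (GRCh38.p14) by transcript, and the probe with the highest mean signal stood for a gene. The array header names another build, so no gene coordinates are given except those of the RefSeq promoters. A probe counted as well above background if over 0.5 of its spots carried that mark, and a lower bound used the dimmest such signal of the array. Some brighter probes lacked the mark, so these bounds are approximate.

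All members were named, with, from each of 11 lists, up to 3 genes induced most, up to 2 reduced most and, for cell markers, the 3 with the highest level. Other genes (SYK, HCST, OSCAR, TLR3 to TLR6, IRAK3, CD80, CD40, CTLA4, CD274, TNFSF9, ELANE, SPI1, PTPRC, ITGAM, LAPTM5, CD163, AIF1, CD2, EPCAM, CDH1, KRT20, VIL1, TSPAN8, MUC13, those below background and the chromosomal neighbours) were chosen after their values were seen. Some genes that this rule names are not reported here. The members and lists were chosen with earlier results of these data known. The call rules were tested on simulated data. The 14 alternatives concerned scaling, background correction, spots, thresholds and the choice of probe. Normexp (offset 50) was run on the median spot intensity, as no mean was used here. Analyses used Python 3.11.15, pandas 2.3.3, numpy 2.4.6, R 4.3.3 and limma 3.58.1. The number of arrays limits the precision. Methylation data were not analysed here.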

Additional observations from a re-analysis of the deposited data

How the results depend on the processing

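With 1 array per condition, no array could be left out and no p-value was computed. No paired analysis was possible because there was a single array of each kind. No member reversed its call under the 14 alternatives. The number of members induced by all 3 drugs stayed at 6 under quantile normalization and median scaling. It was also 6 with marked spots, the median of spots, the floor, the series table and calls limited to probes well above background. Those last alternatives could hardly change a member call. Member probes had 1 spot each with no mark, and the series table holds the same intensities. The floor lies far under the level of -1, and members at that level were already well above background. The number was 5 with normexp, which left out CD14. It was 4 with scaling on probes well above background and with a level threshold of 0. Both left out CD14 and TLR2 by their level and gave 4 for each drug alone, OR-2003 included. With the 4-fold threshold 3 members were induced by DAC, 4 by OR-2003, 3 by OR-2100 and 3 by all 3. The shares over all named genes were then 3.29%, 3.39%, 3.44% and 3.17%. With no level threshold 1 member was reduced by DAC, TREM2, and 2 by OR-2100, TREM1 and TREM2, both from signals near or below background. Of all named genes, 11.8% were then reduced by DAC and 15.4% by OR-2100. Over the settings the log2 difference ran from 2.54 to 4.13 for TYROBP, 1.25 to 1.83 for CD83, 1.37 to 2.46 for CD86, 0.84 to 1.99 for CD14, 0.30 to 1.37 for TLR1, 1.47 to 6.23 for TLR2, 2.78 to 7.91 for MPO and -0.47 to 0.12 for FCER1G. The lowest values of TLR2 and MPO were those with normexp, and their mock signals were below background. The median of all genes moved between -0.32 and 0.20. Of 308 list counts 34 moved by over 1.5 times. Of 108 list medians 34 moved by more than the spread over the drugs, and of 270 member differences 63 moved by more than the spread between spots.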
